A study of Mus musculus with 15 samples.

Results

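The genes described here encode the subunits of the constitutive proteasome and its regulatory particles, measured in MC3T3 cells, an osteoblast precursor line from mouse calvaria. They were taken as every probe set with a single gene symbol that starts with Psma, Psmb, Psmc, Psmd or Psme, leaving out the immunoproteasome genes Psmb8, Psmb9 and Psmb10. This gave 50 probe sets of 12488 on the array and 39 of the 8251 genes with a probe set of their own, and each gene was read from its probe set with the highest mean log2 signal. By role these were 7 alpha and 7 beta subunits of the 20S core, 6 ATPases and 11 non-ATPase subunits of the 19S cap, 3 chaperones that assemble the 19S base (Psmd5, Psmd9 and Psmd10) and 3 activators (Psme1, Psme3 and Psme4). The other 2, Psmc3ip and Psme3ip1, match the letters but are not proteasome subunits: Psmc3ip takes part in meiotic recombination, and Psme3ip1 binds the activator Psme3. Psme2 lay only on probe sets with several symbols and is not among the 39. After a filter on mean signal 36 genes were tested, and Psmc4, Psmd2 and Psmc3ip were too dim. The 36 tested genes include Psme3ip1 and are together called proteasome genes below.

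The cells were of clone 1b, a single clone, and were cultured in 5 groups of 3 arrays. These were control medium at day 0, beta-glycerol phosphate (GP), a phosphate source for mineral, at day 1 and day 3, and GP with ascorbic acid (AA), a cofactor of collagen hydroxylation, and bone morphogenetic protein 2 (BMP-2), a bone-inducing growth factor, at day 1 and day 3. The last are called treated. No group had AA or BMP-2 alone, so what each did cannot be told apart, and at day 1 and day 3 all cultures had GP. Each array carried a prep number, 1 to 3. The labels do not say that the preps were cultured apart. The p-values therefore measure the spread among these arrays, which may be technical. In bulk RNA, fewer cells of a type and less RNA per cell cannot be told apart.

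The proteasome degrades proteins that carry ubiquitin chains. Its 20S core is a barrel of alpha subunits, which form the outer rings and the gate, and beta subunits, which form the inner rings and hold the proteolytic sites on Psmb5 (chymotrypsin-like), Psmb6 (caspase-like) and Psmb7 (trypsin-like). The 19S cap binds and unfolds substrates with its ATPases, and its deubiquitinase Psmd14 removes the chain. Other activators can dock on the core: Psme1 and Psme2 form an interferon-inducible ring linked to peptide production for class I presentation, Psme3 forms a nuclear ring, and Psme4 is a large single-chain activator. Under interferon, Psmb8, Psmb9 and Psmb10 replace the catalytic beta subunits to form the immunoproteasome. When proteasome activity drops, the transcription factor Nfe2l1 raises many subunit genes together through antioxidant response elements (ARE). In osteoblast lineage cells the proteasome is known for the turnover of Smad proteins and Runx2.

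Promoter stretches are shown for the 4 genes that passed the test in treated against GP cultures, and for 2 catalytic subunits whose promoter holds an ARE core. Each is the 120 bases before the RefSeq start in GRCm38.p6, with motif matches in capitals. They lie at chr11:97703314-97703433 on the plus strand for Psmb3, chr7:140882274-140882393 on the plus strand for Psmd13, chr2:34870963-34871082 on the minus strand for Psmd5 and chr14:55578374-55578493 on the plus strand for Psme1. Those of the catalytic subunits lie at chr14:54617996-54618115 on the minus strand for Psmb5 and chr11:70525237-70525356 on the plus strand for Psmb6.
Psmb3: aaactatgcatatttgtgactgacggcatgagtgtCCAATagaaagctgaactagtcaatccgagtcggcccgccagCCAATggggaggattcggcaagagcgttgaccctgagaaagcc
Psmd13: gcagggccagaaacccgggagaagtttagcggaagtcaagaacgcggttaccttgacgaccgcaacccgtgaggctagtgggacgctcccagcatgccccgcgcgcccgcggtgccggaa
Psmd5: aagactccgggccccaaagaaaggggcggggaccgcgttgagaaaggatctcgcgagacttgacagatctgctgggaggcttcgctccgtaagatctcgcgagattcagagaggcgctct
Psme1: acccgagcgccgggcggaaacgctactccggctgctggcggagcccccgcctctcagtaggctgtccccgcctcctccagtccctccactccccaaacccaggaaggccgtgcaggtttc
Psmb5: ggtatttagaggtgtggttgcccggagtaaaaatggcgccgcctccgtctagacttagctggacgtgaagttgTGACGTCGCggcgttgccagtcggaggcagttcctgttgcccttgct
Psmb6: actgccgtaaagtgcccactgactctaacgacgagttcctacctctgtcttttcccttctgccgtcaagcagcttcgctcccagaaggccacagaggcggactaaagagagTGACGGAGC
The capitals are CCAAT in Psmb3, at positions -85 to -81 and -43 to -39 from the start, and the ARE core TGACNNNGC in Psmb5, at -47 to -39, and in Psmb6, at -9 to -1. The stretches of Psmd13, Psmd5 and Psme1 held no match. RefSeq windows from 250 bases before to 50 after the start were at hand for 33 of the 39 genes; Psmb1, Psmb2, Psmb7, Psmc3, Psmd3 and Psmd7 were not among them. Searched on both strands, TGACNNNGC was in 6 of the 33 windows (Psmb5, Psmb6, Psmc6, Psmd12, Psmd9 and Psme4), 18.2%, against 12.5% of the 27025 genes with a window. The AP-1 motif TGANTCA, which can overlap the ARE core, was in 2 windows, 6.06% against 7.93%, and CCAAT was in 13, 39.4% against 37.9%.

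The 15 arrays had been scaled to a trimmed mean of 149 to 150. All 5 osteoblast lineage markers on the array (Alpl, Cdh11, Col1a1, Col1a2 and Sparc) passed the filter on mean signal, with a summed intensity of 16516 to 26885. Alpl was at 10.2 to 34.1 in medium and GP cultures and passed through the treated ones, at 61.8 to 970.9. Cdh11 went the other way, with a mean of 334 in GP and 248 in treated cultures at day 1. At day 3 its means were 378 and 160. The summed intensity was 39.8 to 109 for 6 macrophage markers, of which only Csf1r passed the filter, 27.3 to 90.7 for 4 endothelial markers and 6.5 to 72.3 for 3 adipocyte markers, of which 0 passed. The prep 3 arrays had more values at the floor of the scale, 12.1% to 14.3%, where the lowest array had 7.29%. RNA quality, read from the ratio of the actin 3' probe set to the 5' one, was 1.00 to 1.34 on 14 arrays and 2.11 on GP day 3 prep 3.

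The first comparison asked what AA and BMP-2 added to GP after 1 day. Of the 36 tested genes 3 rose and 1 fell: Psmb3, a structural beta subunit, Psmd13, a lid subunit of the 19S cap, and the assembly chaperone Psmd5 rose, and the activator Psme1 fell. The test was limma over all 7453 probe sets with the prep number as a block and a Benjamini-Hochberg adjusted p under 0.05, and 4.99% of all probe sets passed it, 2.07% higher and 2.92% lower. Without the block 0 of the 36 passed, against 0.926% of all. An unadjusted p under 0.05 was then found for 8 of the 36, against 11.3% of all. With the block it was found for 13 of the 36, against 19.7% of all.

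Counting all 36 genes, the 4 that passed included, the treated mean was above the GP mean for 32 of the 36, 88.9%, against 49.4% of all tested probe sets. The median log2 difference was 0.22, with a range of -0.61 to 0.82, and the median over all probe sets was 0.00. In 25 genes the treated array was the higher in all 3 preps, as it was for 1673 of the 7453 probe sets. Within preps the median over the 36 genes was 0.17 in prep 1, 0.20 in prep 2 and 0.27 in prep 3. The 3 treated values lay above the 3 GP values without overlap in 10 genes, where 8.44% of all probe sets did so, and below them in 1, where 8.63% did so.

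**Figure D1:**
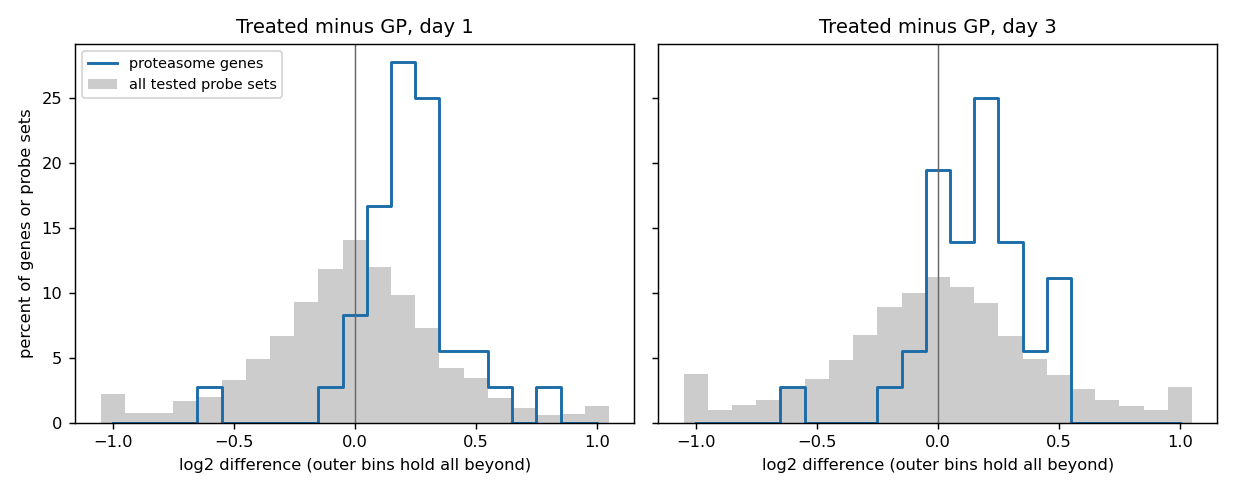
Share of genes (y axis, percent) by log2 difference between treated and GP cultures (x axis, bins of 0.1) for the 36 tested proteasome genes and all 7453 tested probe sets, at day 1 and day 3. The proteasome genes sit to the right of 0, with medians of 0.22 at day 1 and 0.18 at day 3, and few lie far from it.

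At day 3, 2 genes rose, again Psmb3 and Psmd13, and 1 fell, again Psme1. Both comparisons are between arrays of their own day and share no arrays, but they share the prep block and the estimate of spread. Of all probe sets 13.8% passed at day 3, 6.84% higher and 6.99% lower. The share of the proteasome genes that passed with the block was below that background share, where at day 1 it was above. Without the block 0 of 36 passed, against 4.11% of all. An unadjusted p under 0.05 was then found for 6 of 36, against 16.7% of all. With the block it was found for 12 of 36, against 26.8% of all. The treated mean was the higher for 28 genes, 77.8%, against 50% of all, and the median log2 difference was 0.18, with a range of -0.57 to 0.54. Within preps that median was 0.29, 0.05 and 0.18, so the shift was smallest in prep 2. The treated values lay above the GP values without overlap in 8 genes, where 10.5% of all did so, and below in 1, where 9.58% did so.

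**Figure D2:**
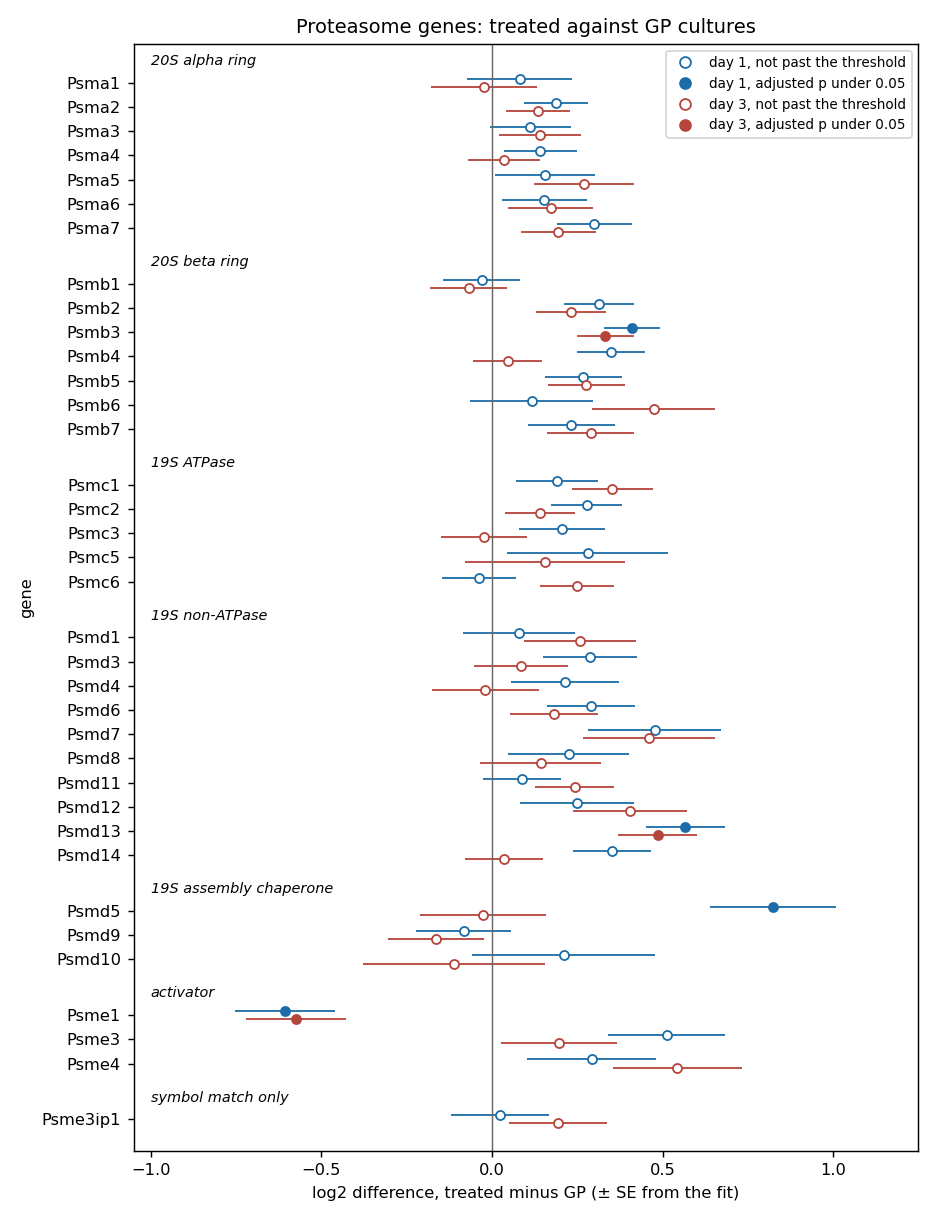
Log2 difference between treated and GP cultures (x axis, ± SE from the fit, 3 arrays a group) for each of the 36 tested genes (y axis, grouped by role), at day 1 in blue and day 3 in red; filled points passed the adjusted p of 0.05. Most points lie between 0 and 0.5, and Psme1 stands apart on the left at -0.61 and -0.57.

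The calls changed with single arrays as well as with the block. The shares of all probe sets in fits with arrays left out were not counted. The counts below therefore cannot be set against the whole array. At day 1 the number called was 0 without all arrays of prep 1, of prep 2 or of prep 3, where 8 or 9 genes had an unadjusted p under 0.05. It was 0, 2 and 0 without GP day 1 prep 1, 2 and 3, and 2, 1 and 1 without treated day 1 prep 1, 2 and 3. At day 3 it was 1, 0 and 1 without prep 1, 2 and 3. It was 2, 1 and 3 without GP day 3 prep 1, 2 and 3. The 3 called without GP day 3 prep 3, the array with the actin ratio of 2.11, were Psmb7, Psmd13 and Psme4. Psmb3 and Psme1 lost their day 3 call in that fit. Without treated day 3 prep 1, 2 and 3 the number called was 1, 2 and 3. The genes called at a day kept their sign at that day each time. When each of the 6 arrays of a comparison was left out in turn, the day 1 call was kept in 1 fit for Psmb3, 3 for Psmd13, 1 for Psmd5 and 1 for Psme1, with an adjusted p of at most 0.068, 0.0778, 0.109 and 0.153. At day 3 it was kept in 3 fits each for Psmb3, Psmd13 and Psme1, with an adjusted p of at most 0.0635, 0.066 and 0.091.

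Among the alpha subunits, which form the outer rings and the gate of the core, all 7 had a treated mean above the GP mean at day 1 and 6 at day 3, with medians of 0.15 and 0.14, and 0 of 7 passed at either day. Psma7 alone of the 7 had an unadjusted p under 0.05 at day 1. Psma7 was at 421.4, 444.7 and 532.5 in the GP day 1 cultures of preps 1, 2 and 3 and at 553.7, 542.6 and 619.6 in the treated ones, a log2 difference of 0.30 ± 0.11 (SE, adjusted p = 0.136). The lowest treated value lay just above the highest GP value. Psma1 differed least, by 0.08 ± 0.15 at day 1 and -0.02 ± 0.15 at day 3.

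Of the 7 beta subunits, 1 passed at each day, Psmb3, which is a structural subunit without a proteolytic site. Psmb3 was at 854.4, 941.7 and 831.9 in medium, in preps 1, 2 and 3. At day 1 it was at 801.2, 895.2 and 771.6 in GP and 1022.7, 1177.9 and 1078.4 in treated cultures, and at day 3 at 838.6, 943.7 and 757.9 in GP and 1073.1, 1125.5 and 992.0 in treated cultures. Every treated value was above every GP and medium value. The log2 difference was 0.41 ± 0.08 (1.33-fold, adjusted p = 0.0132) at day 1 and 0.33 ± 0.08 (1.26-fold, adjusted p = 0.0172) at day 3; without the block the adjusted p was 0.156 and 0.155. Within preps it was 0.35, 0.40 and 0.48 at day 1 and 0.36, 0.25 and 0.39 at day 3.

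Of the 3 catalytic subunits 0 passed at either day, and all 3 had a higher mean in treated cultures at both days. Psmb5, the chymotrypsin-like subunit, was at 557.8, 511.8 and 431.7 in GP and 656.2, 633.3 and 517.5 in treated cultures at day 1, and at 517.2, 451.7 and 415.6 against 582.0, 536.5 and 552.6 at day 3. The groups overlapped at day 1 and were apart at day 3. The differences were 0.27 ± 0.11 (95% interval 0.03 to 0.51, adjusted p = 0.198) and 0.28 ± 0.11 (0.03 to 0.52, adjusted p = 0.127). A dimmer probe set of Psmb5 gave 0.43 at day 1 and -0.37 at day 3 (adjusted p = 0.347), so the probe sets disagreed at day 3.

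Psmb6, the caspase-like subunit, was at 775.0, 815.3 and 601.3 in GP and 873.3, 650.5 and 852.8 in treated cultures at day 1, with prep 2 lower in the treated culture. At day 3 it was at 663.8, 523.2 and 567.5 in GP and 881.6, 785.9 and 761.7 in treated cultures, which did not overlap. The differences were 0.12 ± 0.18 (-0.27 to 0.50, adjusted p = 0.799) and 0.47 ± 0.18 (0.09 to 0.86, adjusted p = 0.102). Psmb7, the trypsin-like subunit, was at 618.0, 571.6 and 440.7 in GP and 620.7, 701.0 and 580.0 in treated cultures at day 1, and at 453.4, 476.2 and 524.2 against 622.2, 562.3 and 590.7 at day 3. Its groups overlapped at day 1 only, with differences of 0.23 ± 0.13 (-0.04 to 0.51, adjusted p = 0.348) and 0.29 ± 0.13 (0.02 to 0.56, adjusted p = 0.161). Over all 36 genes, the 95% interval of the difference lay within 1.5-fold in either direction for 24 at day 1 and 25 at day 3.

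Among the other structural beta subunits, Psmb4 differed by 0.35 ± 0.10 at day 1 (adjusted p = 0.063), without overlap of the groups, and by 0.05 ± 0.10 at day 3. Psmb2 differed by 0.31 ± 0.10 and 0.23 ± 0.10 (adjusted p = 0.0987 and 0.165). Psmb1 was at -0.03 ± 0.11 and -0.07 ± 0.11, and its second probe set gave -0.01 and -0.04. The remaining probe sets of Psmb1 and Psmb4 lay under the filter and were not tested. Over the 7 the medians were 0.27 and 0.28.

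**Figure D3:**
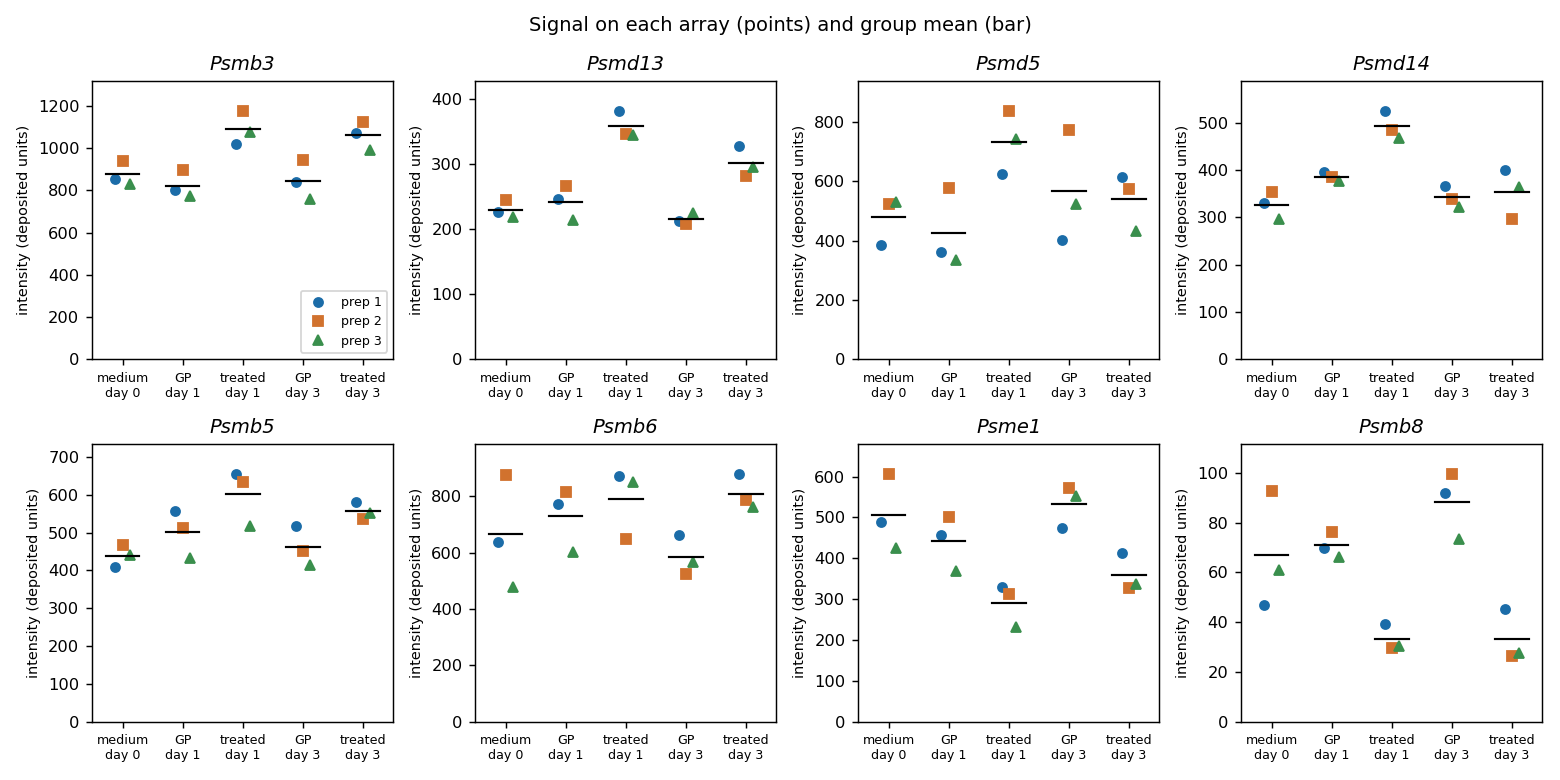
Deposited intensity (y axis, linear) on each of the 15 arrays in the 5 groups (x axis), with marker shape and colour for the prep and a bar for the group mean, for Psmb3, Psmd13, Psmd5, Psmd14, Psme1, the catalytic subunits Psmb5 and Psmb6 and the immunoproteasome subunit Psmb8. Psmb3 and Psmd13 stand higher in both treated groups and Psme1 and Psmb8 lower in both, while Psmd5 stands apart at day 1 and overlaps at day 3.

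The 19S ATPases unfold substrates and push them into the core, and 0 of the 5 tested passed at either day. Their medians were 0.20 and 0.15, with 4 of 5 above 0 at each day. Psmc1 differed by 0.19 ± 0.12 at day 1 and 0.35 ± 0.12 at day 3 (adjusted p = 0.432 and 0.0675), and its groups did not overlap at either day. Psmc3 was read from 1 of 3 probe sets, which gave 0.20, 0.13 and 0.40 at day 1 and -0.02, -0.02 and -0.05 at day 3. The sixth ATPase, Psmc4, was at 1.9 to 20.4 on the 15 arrays, under the filter, and was not tested.

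Of the 10 tested non-ATPase subunits, which bind ubiquitin chains and form the scaffold and lid, 10 were above 0 at day 1 and 9 at day 3, with medians of 0.27 and 0.21. Of these 1 passed at each day, Psmd13. Psmd13 was at 226.6, 243.9 and 219.1 in medium, at 245.4, 266.6 and 214.4 in GP and 381.6, 346.7 and 344.7 in treated cultures at day 1, and at 211.6, 208.1 and 224.3 against 327.3, 281.3 and 294.7 at day 3. The treated values were the 6 highest of the 15. The differences were 0.57 ± 0.12 (1.48-fold, adjusted p = 0.0136) and 0.49 ± 0.12 (1.40-fold, adjusted p = 0.0134); without the block the adjusted p was 0.0563 and 0.0506. Within preps they were 0.64, 0.38 and 0.69 at day 1 and 0.63, 0.43 and 0.39 at day 3.

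The non-ATPase subunit Psmd7 had differences of the same size as Psmd13 but a wider spread, 0.48 ± 0.19 and 0.46 ± 0.19 (adjusted p = 0.181 and 0.141). Its prep values were 0.09, 0.53 and 0.81 at day 1 and 1.02, 0.03 and 0.33 at day 3. Psmd2, which binds ubiquitin-like domains of shuttle proteins, was at 2.8 to 37.6 on the 15 arrays and was not tested.

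The deubiquitinase Psmd14 was at 331.3, 354.3 and 297.0 in medium, 395.7, 386.8 and 376.5 in GP day 1 and 526.1, 484.5 and 469.5 in treated day 1 cultures. At day 3 it was at 367.1, 339.9 and 322.4 in GP and 399.9, 297.0 and 365.4 in treated cultures. The treated day 1 arrays were the 3 highest of the 15. Against GP the differences were 0.35 ± 0.11 (adjusted p = 0.0979) and 0.04 ± 0.11 (adjusted p = 0.885). Between treated cultures Psmd14 fell by 0.49 on the log2 scale from day 1 to day 3, with an SE of 0.11 (0.713-fold, adjusted p = 0.0319), and was lower in 3 of 3 preps; without the block the adjusted p was 0.212, and with single arrays left out the call was kept in 2 of 6 fits.

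The assembly chaperone Psmd5 holds ATPases of the 19S base until they join the cap. It was at 360.6, 578.1 and 335.4 in GP and 623.0, 837.8 and 741.9 in treated cultures at day 1, against 384.2, 524.3 and 530.7 in medium. The 3 treated values were the higher ones, with a difference of 0.82 ± 0.19 (1.77-fold, adjusted p = 0.0229, and 0.189 without the block) and prep values of 0.79, 0.54 and 1.15. At day 3 it was at 401.1, 772.0 and 523.5 in GP and 616.0, 574.4 and 433.8 in treated cultures, a difference of -0.03 ± 0.19 with prep values of 0.62, -0.43 and -0.27. The change of the treatment difference between the days was -0.85 ± 0.26, with an unadjusted p of 0.00621 in limma and an adjusted p of 0.305, so it did not pass. The other chaperones did not pass either: Psmd9 was at -0.08 ± 0.14 and -0.16 ± 0.14, and Psmd10 at 0.21 ± 0.27 and -0.11 ± 0.27.

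Of the 3 activators 1 passed, at both days, and it was lower. Psme1 was at 488.2, 607.4 and 424.6 in medium, 455.9, 500.1 and 368.8 in GP and 328.8, 312.4 and 231.6 in treated cultures at day 1, and at 474.4, 572.6 and 553.0 against 412.9, 326.8 and 337.7 at day 3. The treated values lay below the GP values without overlap at both days. The differences were -0.61 ± 0.15 (0.656-fold, adjusted p = 0.0308) and -0.57 ± 0.15 (0.672-fold, adjusted p = 0.0196), and 0.167 and 0.104 were the adjusted p without the block. Within preps they were -0.47, -0.68 and -0.67 at day 1 and -0.20, -0.81 and -0.71 at day 3. A second, dimmer probe set of Psme1 lay under the filter, and the mean of both gave -0.12 at day 1 and 0.42 at day 3, the opposite sign, with adjusted p-values of 0.895 and 0.458 in limma.

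Psme3, the nuclear activator, was at 167.8, 132.0 and 135.2 in GP and 196.1, 186.3 and 237.8 in treated cultures at day 1, without overlap, and at 174.3, 130.5 and 151.8 against 183.5, 157.2 and 180.2 at day 3. The differences were 0.51 ± 0.17 (adjusted p = 0.103) and 0.20 ± 0.17 (adjusted p = 0.508). Psme4 was at 144.3, 108.4 and 183.7 in GP and 138.2, 156.8 and 243.5 in treated cultures at day 1, and at 123.6, 85.5 and 195.2 against 158.1, 181.4 and 222.6 at day 3. Its groups overlapped at both days, with prep 3 the highest array of each of the 5 groups, and the differences were 0.29 ± 0.19 (adjusted p = 0.444) and 0.54 ± 0.19 (adjusted p = 0.0742). Of the genes matched by letters only, Psmc3ip was at 4.9 to 40.7 on the 15 arrays and was not tested, and Psme3ip1 differed by 0.02 ± 0.14 and 0.19 ± 0.14.

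Changes over time were tested within each kind of culture; these comparisons share arrays with the ones above, and with each other. From medium at day 0 to GP at day 1, when medium and time changed together, 0 of 36 passed and 0 had an unadjusted p under 0.05, against 0.725% and 7.62% of all probe sets, and the median difference was 0.04. The 95% interval lay within 1.5-fold in either direction for 32 of the 36. From GP day 1 to GP day 3, 0 passed and 1 gene, Psmd5, had an unadjusted p under 0.05, against 1.85% and 13.4% of all, with a median of -0.06. In treated cultures 1 gene, Psmd14, passed from day 1 to day 3, against 3.84% of all, 1.81% of them lower. The median was -0.11, 8 of 36 were above 0 against 48.5% of all, and 4 had an unadjusted p under 0.05 (Psma2, Psmd5, Psmd13 and Psmd14), against 16.5% of all. Leaving out any prep gave 0 called there, and so did leaving out any treated day 1 array or treated day 3 prep 2; without treated day 3 prep 1 and prep 3 the number was 2 and 1.

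The difference of the treatment effect between the days had 0 of 36 and 0 of 7453 probe sets called in limma with the block. Psmd5 alone of the 36 had an unadjusted p under 0.05, where 8.72% of all probe sets did. The median of this difference was -0.08, and 14 of 36 were above 0 against 50.7% of all. For 19 of the 36 the interval of the difference lay within 1.5-fold.

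Set against the medium of their own prep, the 36 genes had medians of 0.02, 0.02 and 0.06 in GP day 1 cultures of preps 1, 2 and 3, and 0.18, 0.22 and 0.37 in treated day 1 cultures. At day 3 the medians were -0.10, -0.08 and 0.13 in GP and 0.17, -0.03 and 0.31 in treated cultures. The treated day 1 culture had the highest median in each prep, and at day 3 the treated culture was above the GP culture of its prep in all 3. By group mean, 24 of the 36 genes were highest in treated day 1 cultures and 7 in treated day 3 cultures. Of the 36, 15 were lowest in GP day 3, 10 in medium and 9 in GP day 1 cultures. The same counts were not made over all probe sets.

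**Figure D4:**
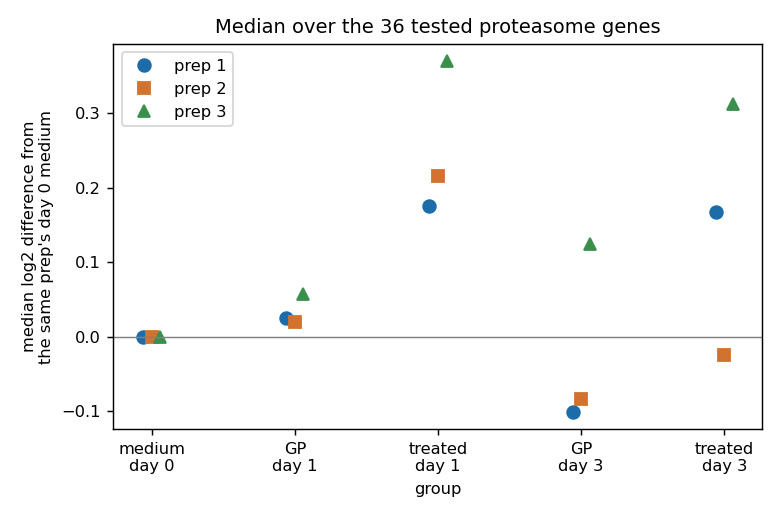
Median over the 36 tested genes of the log2 difference from the same prep's day 0 medium (y axis) in the 5 groups (x axis), 1 point for each prep. Treated day 1 cultures are at 0.18, 0.22 and 0.37, above the GP cultures of every prep.

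The range of the 5 group means had a median of 0.35 on the log2 scale over the 36 genes, against 0.49 over all tested probe sets, and that of the 3 prep means was 0.22 against 0.39. The 36 genes were also brighter, with a median mean log2 signal of 9.13 against 7.04 over all tested probe sets. Their median SE for treated against GP at day 1 was smaller, 0.13 against 0.20. How far signal level accounts for the narrower ranges was not tested. The median log2 difference of prep 3 from the other preps was -0.07, against -0.06 for all. The genes with the largest prep 3 differences were Psmd11 at 0.64 and Psme4 at 0.56, both higher, and Psmd1 at -0.41 and Psmc3 at -0.37, both lower.

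Of 6 tested immunoproteasome and class I peptide loading genes (B2m, Psmb8, Psmb10, Tap1, Tap2 and Tapbp), 3 fell at day 1 and 4 at day 3, where 2.92% and 6.99% of all probe sets fell, and 0 rose. Without the block 1 and 2 passed, against 0.926% and 4.11% of all. The medians were -0.58 and -0.65. B2m, the light chain of class I molecules, was at -0.27 and -0.16 (adjusted p = 0.511 and 0.657), and Tap1, the other chain of the peptide transporter, was at -0.26 at day 1 and 0.17 at day 3 (adjusted p = 0.521 and 0.612). Psmb8, which replaces Psmb5, was at 69.9, 76.3 and 66.2 in GP and 39.2, 29.7 and 30.4 in treated cultures at day 1, and at 91.9, 99.7 and 73.3 against 45.4, 26.3 and 27.5 at day 3. All treated values were below all GP values, and the differences were -1.11 ± 0.28 (adjusted p = 0.0346, and 0.0951 without the block) and -1.45 ± 0.28 (adjusted p = 0.00391, and 0.0117 without the block). At day 1 the call for Psmb8 was lost when any single GP or treated day 1 array was left out. The adjusted p was then 0.0602 to 0.149. With any prep left out the day 1 call was lost too, with an adjusted p of 0.077 to 0.272 in limma. At day 3 the call was lost without prep 2 (adjusted p = 0.0691). With the floor at the 50th percentile the differences were -0.63 and -0.94, and under a filter at the 60th percentile Psmb8 was not tested.

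Psmb10, which replaces Psmb7, was at 192.9, 309.4 and 179.5 in GP and 150.4, 193.1 and 129.1 in treated cultures at day 1, and at 275.6, 370.9 and 276.9 against 177.4, 162.3 and 180.2 at day 3. The groups overlapped at day 1 (-0.50, adjusted p = 0.0902) and not at day 3, where it fell by 0.82 with an SE of 0.16 (adjusted p = 0.00475, and 0.0652 without the block). Leaving out prep 1 or prep 2 lost that call, with an adjusted p of 0.0508 and 0.0723. Psmb9, which replaces Psmb6, was under the filter, at 4.0 to 51.6, and was not tested. Tap2, a chain of the peptide transporter, fell by 1.06 and 0.87 (adjusted p = 0.00248 and 0.00339, and 0.0237 and 0.0274 without the block). Tapbp, which tethers the transporter to class I molecules, fell by 0.65 and 0.48 (adjusted p = 0.0126 and 0.0248, and 0.177 and 0.22 without the block). Its call was kept in 3 of 6 fits at day 1 and 2 of 6 at day 3 when single arrays were left out, and that of Tap2 in 6 of 6 at both days. With a prep left out, Tap2 lost its call at day 1 without prep 2 (adjusted p = 0.123) and at day 3 without prep 1 or prep 2 (adjusted p = 0.091 and 0.0556). Tapbp then lost it at both days without prep 2 or prep 3, with an adjusted p of 0.0807 to 0.24.

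Among 11 assembly factors and regulators of the proteasome on the array, 0 passed at day 1, against 4.99% of all probe sets, and 3 had an unadjusted p under 0.05, against 19.7% of all. At day 3, 2 rose and 1 fell, where 6.84% and 6.99% of all did so. Sem1, a small 19S subunit without a Psm symbol, was at 2325.6, 2968.0 and 2479.7 in GP and 3728.1, 4066.6 and 2807.3 in treated cultures at day 3, where treated prep 3 lay below GP prep 2, and rose by 0.44 ± 0.10 (adjusted p = 0.00821). Psmg1, a chaperone of the alpha ring, rose by 0.45 ± 0.13 (adjusted p = 0.0351). Without the block neither passed, with an adjusted p of 0.209 and 0.474, and when single arrays were left out the call was kept in 6 of 6 fits for Sem1 and 1 of 6 for Psmg1. Nfe2l1, the factor that raises subunit genes when proteasome activity drops, was at 709.4, 766.4 and 973.1 in GP and 523.2, 556.7 and 498.1 in treated cultures at day 3, without overlap. It fell by 0.62 with an SE of 0.14 (adjusted p = 0.00962, and 0.0336 without the block) and was at -0.34 at day 1 (adjusted p = 0.183). With the mean of its probe sets the day 3 value was -0.40, with an adjusted p of 0.18. Leaving out prep 1 or prep 2 lost the calls of Nfe2l1, with an adjusted p of 0.0675 and 0.071, and of Sem1, with 0.155 and 0.146. The call of Psmg1 was lost with any prep left out, with an adjusted p of 0.129 to 0.313 in limma.

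Nfe2l2, which acts on the same element under oxidative stress, was at -0.39 and -0.12 (adjusted p = 0.163 and 0.669), and Pomp, the chaperone that completes the core, at 0.32 and 0.55 (adjusted p = 0.523 and 0.144). Of 9 genes of ubiquitin supply and shuttling on the array, 0 passed at either day, against 4.99% and 13.8% of all, and 2 and 0 had an unadjusted p under 0.05, against 19.7% and 26.8%, with medians of 0.21 and 0.08. The closest was Vcp, the segregase that pulls substrates out of complexes, at 0.31 at day 1 (adjusted p = 0.0772).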

How the data were processed

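RNA from 15 samples of MC3T3 cells was hybridised to single-colour oligonucleotide arrays of 12488 probe sets. The authors deposited linear intensity values per probe set, per the labels and the value table; their software is not given in the sources used here. Gene names came from the platform annotation, and the Entrez identifiers of all 39 genes matched RefSeq GRCm38.p6. Of the probe sets other than the 66 controls, 10833 had 1 symbol, 396 had several and 1193 had none.

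Values under 2.8, the 10th percentile, were set to 2.8 and log2 was taken. Probe sets with a mean log2 under that of an intensity of 22.3, the 40th percentile, were left out, which left 7453. The linear models of limma 3.58.1 (R 4.3.3; lmFit, then eBayes with trend) took all 15 arrays, with the prep number as a block (8 residual degrees of freedom, 10 without it). P-values were adjusted by Benjamini-Hochberg over the 7453 probe sets and called at 0.05. Errors are standard errors from the fit. The script was tested on simulated data. The number of arrays limits the precision.

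The block was used because the rule that set the genes and groups pairs the groups by prep number. Deviations from group means also correlated between arrays with the same prep number. Values were 0.26 to 0.51 in prep 1, 0.19 to 0.37 in prep 2 and 0.47 to 0.70 in prep 3 (10 pairs each). Between numbers they were -0.77 to 0.26. These include pairs within a group, which tend below 0 because the deviations of a group sum to 0. Of 105 pairs of arrays 0 were identical. The genes, lists and tests were chosen with earlier results of these data known. Described in full were genes that passed, the catalytic subunits, Psmd14, the activators, Psmc3ip, Psmb8, Psmb9, Psmb10, Nfe2l1, Nfe2l2 and Pomp; Psma7, Psmb1, Psmb2, Psmb4, Psmc1, Psmc3, Psmd2, Psmd7, Psmc4 and Vcp were picked after their values were seen. The probe sets of Psma3, Psmb4, Psmb7, Psmc3 and Psmd12 (family), Psmb5 (shared) and Psmd9 (relaxed design) carry suffixes for sequence rules, so signal from a similar transcript is possible. Alternatives were no block, quantile or median scaling, a higher floor, no filter or a 60th percentile filter, no mean trend, array weights, only the groups compared, the mean of a gene's probe sets, and each prep or array left out.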

Additional observations from a re-analysis of the deposited data

How the results depend on the processing

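Every fit that left out a prep or an array, and each other setting, gave 0 proteasome genes called for GP day 1 against medium, GP day 3 against day 1 and the difference between days. For treated against GP at day 1, where 4 were called, the number was 0 without the replicate block, 2 with a floor at the 50th percentile, 2 with no filter, 2 with no mean trend and 7 with array weights, and 3 to 5 under the other settings. Leaving out a prep or an array gave 0 to 2. At day 3, where 3 were called, it was 0 without the block, 1 with only the groups compared (Psmb6) and 2 to 4 under the others, and 0 to 3 with a prep or an array left out. For treated day 3 against treated day 1, where 1 was called, it was 0 without the block, 0 with no mean trend, 0 with array weights and 0 with only the groups compared, and 0 to 2 with a prep or an array left out. The cause of these changes was not tested, beyond the smaller number of arrays in the fits that leave some out. Apart from the fit without the block, the share of all probe sets called was not counted in these fits. Whether the calls over the whole array changed alike is therefore not known.

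Alternatives for single genes were run only for those described in full. Among these, the mean of a gene's probe sets gave 0.42 for Psme1 and -0.048 for Psmb5 at day 3. With a prep or an array left out, Psmb6 at day 1 ranged from -0.077 to 0.34, Psmd14 at day 3 from -0.036 to 0.17 and Nfe2l2 at day 3 from -0.31 to 0.085.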
